A study of Drosophila melanogaster with 12 samples.

Results

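The genes described here encode the proteins of the cytosolic ribosome. They were the rows of the deposited table whose symbol begins with RpL or RpS followed by a digit or P, together with sta and sop, and genes of the mitochondrial ribosome were not taken. The rule used names only and no measured value. It found 92 of the 17050 genes in the table. By name 49 belong to the body of the large subunit, 4 to its stalk and 39 to the small subunit. The table lists sop under the symbol RpS2. RpL37A, which has no row under that symbol, was not analysed here.

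A cytosolic ribosome carries about one copy of each of its proteins, and its large and small subunits are assembled in the nucleolus from ribosomal RNA and imported proteins. The large subunit joins amino acids, the small subunit reads the messenger RNA, and the acidic stalk proteins of the large subunit recruit the elongation factors. In Drosophila many of these genes are known as Minute genes, because loss of one copy slows development and thins the bristles. Several genes exist as pairs of paralogs, one widely expressed and the other known mainly from the germline.

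The RNA came from γ neurons of the mushroom body, cells that lose and rebuild part of their axons in the pupa. The genotype was the same in all 12 libraries: y,w over a wild-type chromosome, a single UAS-RedStinger insertion, and the 71G10 driver over UAS-HR51 RNAi. RedStinger is a red fluorescent nuclear protein, and the RNA interference was aimed at Hr51, a nuclear receptor gene. Pools of 1000 DsRed+ cells were sorted from pupal brains of both sexes. The ages were 6, 12, 18 and 24 h from puparium formation, and each age had 3 libraries, lettered A, B and C. No library of a control genotype was used here, so time was the only comparison. The driver decides which cells were sorted and which received the interference, and nothing in the labels ties the letters to separate dissections. The p-values then reflect spread among libraries that may be technical.

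Libraries held 1597241 to 3752666 mapped reads, and all values below are reads per 10000000 mapped reads unless another unit is named. Hr51 was at 2661 to 5666 in the 12 libraries. The 11 markers of γ Kenyon cells summed to 0.958% to 1.18% of reads and the 6 neuronal markers to 0.75% to 1.54%. The 7 glial markers summed to 0.0134% to 0.0474%, nearly all of it nrv2, and the 9 markers of neuroblasts and dividing cells to at most 0.00399%. The hemocyte markers Hml, He and NimC1, the fat body marker Lsp1alpha and the muscle marker Mhc had 0 reads in every library. Other markers of these lists had reads in some libraries. The sums reached at most 50.8 for 6 hemocyte markers, 190 for 5 fat body markers and 60.7 for 5 muscle markers. The 4 photoreceptor markers summed to 1703 to 6395, nearly all of it norpA. For 6 of the 12 libraries the most similar library, by correlation over all tested genes, was from another time. These were replicates A and B of 6 h, replicate A of 12 h and all 3 libraries of 18 h. The correlation was 0.36 between replicate B of 6 h and replicate A of 12 h, and 0.26 between replicate A of 6 h and replicate B of 18 h. For replicates A and C of 18 h the highest was −0.009 and 0.01, so no library resembled them. Replicates B and C of 12 h, nearest to each other, reached only 0.01. Results are given for all 12 libraries, for replicates B and C (8 libraries), and where they differ for the 10 libraries without replicate A of 6 and of 12 h. Leaving out that pair was chosen after the data were seen, and the measure of similarity does not single it out.

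The ribosomal protein genes were among the most abundant transcripts of these neurons. Of the 92 genes, 84 passed the filter on low values (at least 50 in at least 3 libraries, which stood for 7.99 to 18.8 reads). The median of these 84 was 10566, against 379 for all 6969 genes that passed, and 22 of them stood among the 100 genes with the highest mean and 46 among the highest 200. Among the highest were RpL23A (mean 25154, on chromosome 3L), RpL13A (23703, 3R), RpS6 (23135, X) and RpL8 (22950, 3L). RpL23A and RpL8 are proteins of the large subunit near the exit tunnel and the catalytic centre, and RpS6 is the best known target of S6 kinase in the small subunit. RpL23A ranked 34th among all genes.

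**Figure D1:**
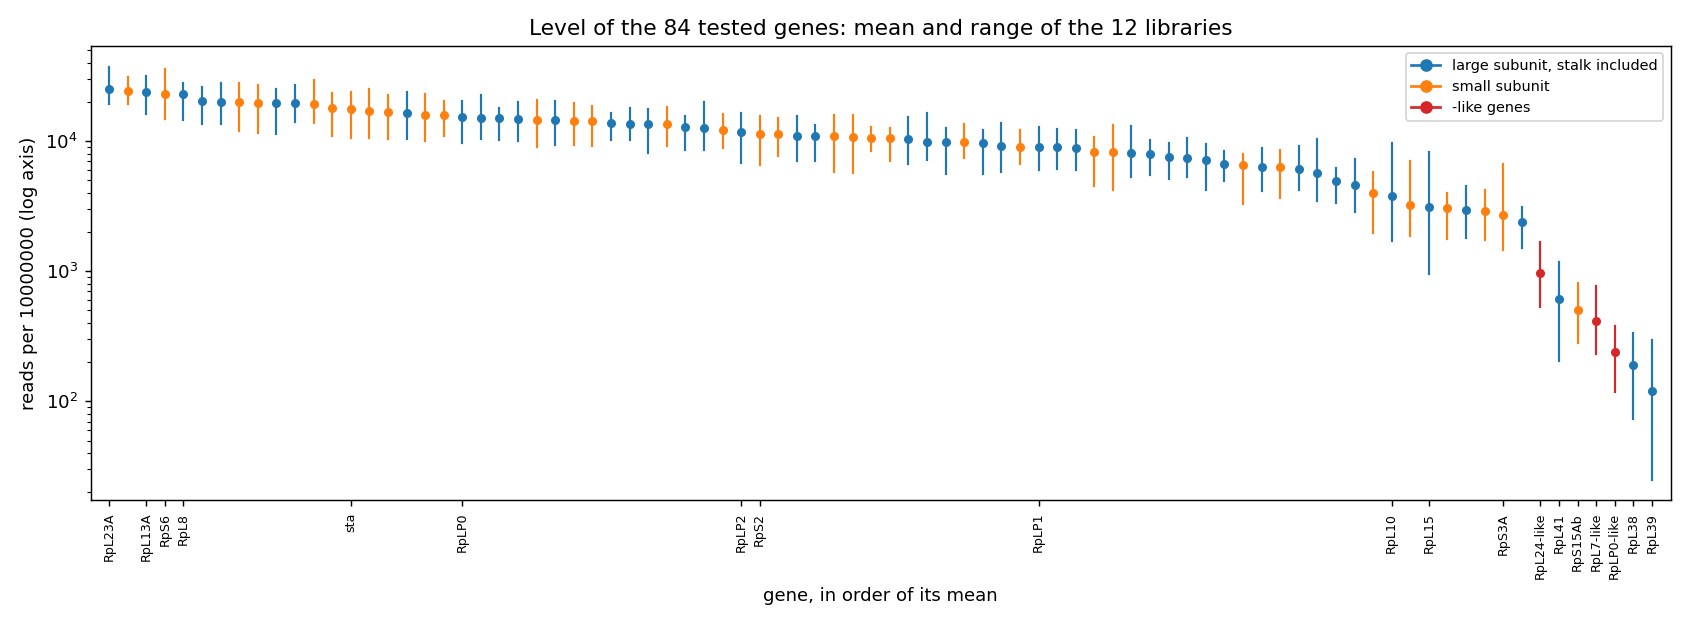
Mean (point) and range over the 12 libraries (line) of the 84 genes that passed the filter, in reads per 10000000 on a log axis, in order of the mean, with genes described in the text labelled. Most genes lay between 5000 and 25000, and RpL38 and RpL39 ended the order at 190 and 119.

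Most of the group kept to a narrow band, and a few genes lay far under it. Of the 84 genes, 65 had a mean between 5000 and 25000, and the middle 50% lay between 6345 and 14981. Setting aside 3 genes whose name ends in -like, the 81 core genes included only 4 under 1000: RpL41 (611), RpS15Ab (507), RpL38 (190) and RpL39 (119). RpL41 and RpL39 encode very small proteins of the large subunit and had exons of 320 and 288 bases in all, while the exons of RpL38 came to 1013 bases. The mean of RpL23A was 211 times that of RpL39. RpL39 overlaps RpL12 on the opposite strand, and no source used here tells whether the counting used strand, so the value of RpL39 is uncertain. The doubt is not limited to RpL39. Of the 92 genes, 25 overlap another gene on the opposite strand and 34 on the same strand. Of the 84 tested genes, 37 overlap no other gene of the table.

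Relative to exon length the order changed. Per kilobase of annotated exon, RpS18 was highest with 27830, followed by RpL13A with 26249 and RpL18 with 25027, and RpL38 was lowest of the core genes with 187. The median over the core genes was 11833 per kilobase. Because the library method reads the 3′ end of a transcript, a value per kilobase is not a measure of molecules, and across the 81 core genes exon length and level had a Spearman correlation of 0.44. That correlation is across genes, which are not independent replicates.

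Ribosomal protein genes of many animals carry small nucleolar RNAs, the guides of ribosomal RNA modification, inside their introns. In the BDGP6 annotation 29 of the 84 tested genes (34.5%) held at least 1 snoRNA gene on the same strand, against 79 of 6806 tested protein-coding genes (1.16%). They held 76 of the 198 snoRNA genes found inside tested protein-coding genes. RpS5a held 14, RpS7 held 7, and RpL28 and RpS16 held 5 each. The median level of the host genes was 12751 (n = 29) and that of the core genes without a snoRNA 10427 (n = 52), a description that was not tested.

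RpLP0, RpLP1 and RpLP2 of the stalk, sta and RpS2 were all well expressed. RpLP0, which anchors the stalk, had a mean of 15335, RpLP2 of 11747 and RpLP1 of 8974. The gene sta, whose product belongs to the small subunit and is also known as the laminin receptor homolog, had a mean of 17750 with libraries from 10607 to 23967. RpS2, the sop gene known from oogenesis, had a mean of 11393 with libraries from 6561 to 15629. RpL24-like, RpL7-like and RpLP0-like, whose yeast relatives are assembly factors of the large subunit and not parts of the ribosome, were far lower, with means of 968, 415 and 239. These 3 genes together made up 0.178% of the reads of the group.

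Where a protein has 2 gene copies, 1 copy dominated in these neurons for most pairs. RpS14b, which lies next to RpS14a on the X chromosome, gave 15.6% ± 1.9 (SD, n = 12) of the reads of its pair. RpL34a gave 35.1% ± 5.85 of the reads of RpL34a and RpL34b. RpS15Ab gave 11.5% ± 3.57 of its pair, with 13.5%, 15.5% and 19.2% at 18 h and 7.3%, 8.12% and 8.41% at 24 h. The libraries of those times did not overlap for this share, which was singled out after its values were seen and was not tested. Copies of such pairs are similar in sequence, and no source used here tells how reads that match both were assigned, so these shares are uncertain.

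Second copies of several proteins, some of them known from the gonads, gave no reads. RpL10Aa, RpL22-like, RpL37b, RpS10a, RpS19b, RpS28-like and RpS28a had 0 reads among 30086720 mapped reads in the 12 libraries. A count of 0 allows 3 reads, a value of up to 0.997 for each gene, and covers counting error only. RpS5b had 27 reads in all and a mean of 9.14, with 34.5 in replicate A of 6 h, and it did not pass the filter. The other copies of these proteins were abundant, from 5643 for RpL10Ab to 14407 for RpL22. RpS5b came to 0.0591% ± 0.0617 of the reads of RpS5a and RpS5b.

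The summed output of the group had mean shares of 8.6% to 10.1% of mapped reads at the 4 times, with a wide spread at 6 h. At 6 h the group took 12.2%, 6.2% and 8.88% of mapped reads in replicates A, B and C. At 12 h the shares were 7.83%, 8.55% and 9.84%, at 18 h they were 9.42%, 10.4% and 10.4%, and at 24 h they were 9.39%, 7.45% and 8.96%. The highest and the lowest of the 12 libraries were both at 6 h, and the ranges of the other times overlapped that of 6 h. The libraries of 18 h (9.42% and up) lay just above those of 24 h (up to 9.39%), and 12 h overlapped both. This difference was not tested. Means were 9.1% ± 3.01 (SD, n = 3), 8.74% ± 1.02, 10.1% ± 0.549 and 8.6% ± 1.02. With each read taken as independent, counting error was small against that spread. In the shallowest library, replicate C of 6 h, the 95% Wilson interval ran from 8.83% to 8.92%.

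**Figure D2:**
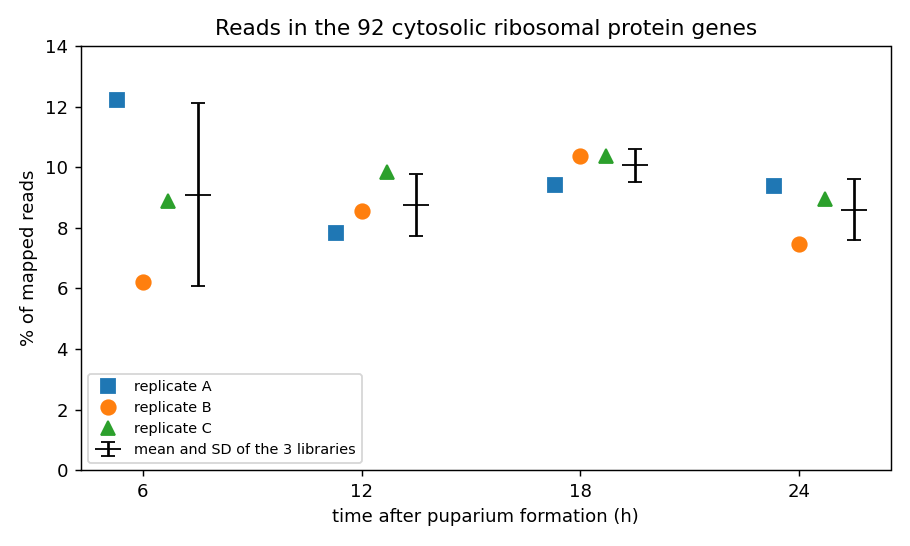
Share of mapped reads (%) in the 92 ribosomal protein genes for each library, by time after puparium formation, with the mean and SD of the 3 libraries beside them. The libraries of 6 h span 6.2% to 12.2%, and those of the other times lie between 7.45% and 10.4%.

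No step between times in that sum was larger than the spread within a time in all 12 libraries. On the log2 scale the ratios of successive times were −0.06, 0.20 and −0.23, the ratio of 24 h to 6 h was −0.08, and the pooled SD was 0.28. The 6 h libraries widened it: in % of reads the SD was 3.01 at 6 h and 0.549 to 1.02 at the other times. For the steps from 12 to 18 h and from 18 to 24 h the pooled SD is therefore wider than the spread of the times compared. In replicates B and C the means were 7.54%, 9.2%, 10.4% and 8.21%, so the first step was 0.29 there and the last −0.34. No p-value is given for a sum over chosen genes. In a pool of sorted cells, a lower share of cells that transcribe the genes and less RNA per cell cannot be told apart. The ratio of small to large subunit reads was steadier, from 0.747 to 0.856 with a mean of 0.803 ± 0.0324 (SD, n = 12).

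Most single genes followed the sum from library to library. The Pearson correlation of a core gene with the sum of all the other genes of the group, over the 12 libraries, had a median of 0.86, and 64 of the 81 core genes were above 0.7. RpL9, a protein of the large subunit, was highest at 0.98. Within a time the median SD of a core gene was 0.33 on the log2 scale, and 0.16 once the sum of the group was taken off. Counting error alone, with each read taken as independent, gave 0.03. For 960 genes with a mean of at least 2000, taking off the sum moved the median SD from 0.31 to 0.40. These correlations share libraries and depth and are given without a test. The 6 genes under 0.2 were RpL41, RpL15, RpL38, RpL10, RpS3A and RpL39. RpL39, a small protein of the large subunit, ranged from 25 to 294 with 4 to 88 reads per library, and its log2 change between 6 and 24 h was 1.60 ± 0.80 (limma adjusted p = 0.399, not called).

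As a group the core genes stood a little higher at 18 h than at 12 or 24 h. From 12 to 18 h the median log2 change was 0.22 and 70 of 81 core genes had a higher mean, against a median of 0.03 over all tested genes. From 18 to 24 h the median was −0.27 with 14 of 81 higher, against −0.11 over all genes, and with scaling by median ratios, which moved the median of all genes by 0.12, it was −0.15. The 12 h mean was higher than the 6 h mean for 41 of 81 (median 0.00), and the 24 h mean for 36 of 81 (median −0.05). In replicates B and C the 4 medians, in order of time and then for 6 to 24 h, were 0.33, 0.19, −0.35 and 0.16. From 6 to 12 h there 80 of 81 core genes had a higher mean, so this step depended on the replicate A libraries. Among 6716 tested genes outside the group, away from centromeres and chromosome 4, 56.6% were higher there (median 0.14). In 12 libraries 55.4% of those genes were higher from 6 to 12 h and 49% from 6 to 24 h. Most core genes followed the sum, so the 81 are not separate observations.

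**Figure D3:**
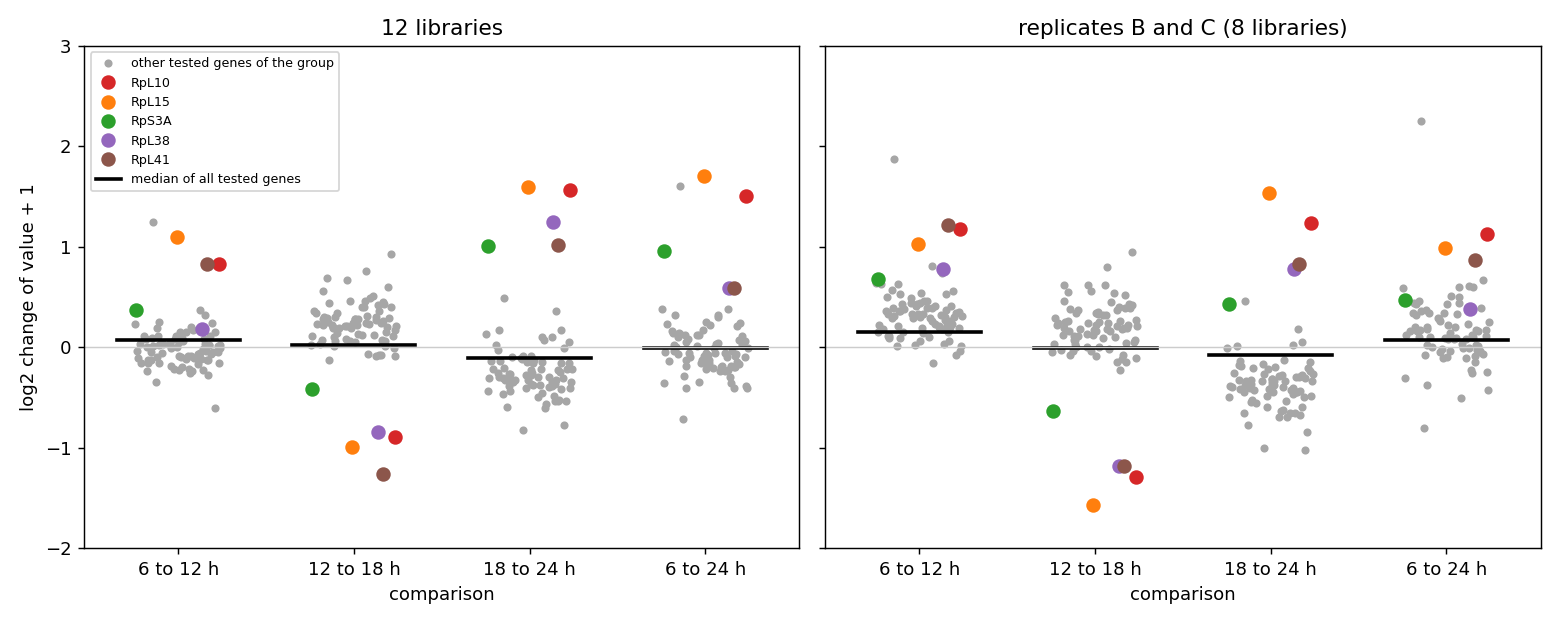
Log2 change of value + 1 for the 84 tested genes (points) in each comparison, in 12 libraries and in the 8 libraries of replicates B and C, with the median of all 6969 tested genes as a bar. Grey points lie mostly between −0.5 and 0.5, while RpL10 and RpL15 stand above 1.5 from 18 to 24 h in the 12 libraries, and the grey points above 1 are RpL39.

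With all 12 libraries no single ribosomal protein gene passed the test. limma (adjusted p under 0.05, Benjamini-Hochberg over 6969 genes) called 0 of the 84 genes in each comparison between times and in the test for any change, against a background of 0% of all genes. At an unadjusted p under 0.05 there were 2, 7 and 10 of 84 for the successive steps, 3 between 6 and 24 h, and 3 for any change. Over all genes the same threshold took 4.75%, 6.14%, 6.95%, 13.5% and 9.9%. edgeR also called 0 of the 84 and 0% of all genes in each of these. At an unadjusted p under 0.05 it had 2, 5, 7, 3 and 4 of 84, against 4.06%, 5.91%, 6.16%, 12.6% and 9.03% of all genes. DESeq2 called RpL10 and RpL15 in the step to 24 h (background 0.33% of genes), between 6 and 24 h (2.83%) and for any change (1.74%). It called none of the 84 from 6 to 12 h (background 0.043%) or from 12 to 18 h (0.0717%).

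Between 6 and 12 h limma called RpL10 and RpS24 in replicates B and C (background 5.6% of genes), and between 6 and 24 h RpL10 (10.1%). It called 0 from 12 to 18 h (0.359%) and 0 from 18 to 24 h (0.129%). For any change it called 6 of the 84, RpL10, RpL15, RpL29, RpL34b, RpS24 and RpS30 (9.44%), a share close to that of all genes. Without replicate A of 6 and 12 h it called RpL10 and RpS24 between 6 and 12 h (5.15%), none in the next step (0%), RpL10 in the last step (0.143%), 4 genes between 6 and 24 h (11.5%) and 5 for any change (9.31%). Those 4 were RpL10, RpL15, RpL32 and RpS24, all higher at 24 h. Run on replicates B and C alone, DESeq2 and edgeR called RpL10 and RpL15 lower from 12 to 18 h (backgrounds 1.85% and 0.746%), and DESeq2 called RpL34b higher in that step (log2 change 0.79, DESeq2 adjusted p = 0.0136). From 18 to 24 h DESeq2 called both higher (1.49%) and edgeR called RpL15 (0.33%). Against 6 h, DESeq2 called RpL10 and RpS24 higher at both 12 and 24 h, and edgeR called RpL10. For these and for any change the backgrounds of DESeq2 and edgeR were 7.83% and 5.8% for 6 against 12 h, 13.6% and 10.1% for 6 against 24 h, and 14.1% and 9.92% for any change.

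RpL10 had the lowest adjusted p of the 84 genes for any change in 12 libraries (limma adjusted p = 0.359, not called), and RpL15 the next lowest (0.386). Its protein, a late addition to the large subunit known also as QM, lies near the sites where transfer RNA binds. Its values were 1986, 1705 and 3087 at 6 h, 2168, 4330 and 6239 at 12 h, 2056, 2485 and 1805 at 18 h, and 9640, 4617 and 5425 at 24 h. All 3 libraries of 24 h lay above all of 6 h and of 18 h, replicate A of 12 h lay with the low libraries, and 12 h overlapped both. Between 6 and 24 h its log2 change was 1.51 ± 0.37 (SE; limma adjusted p = 0.136) in 12 libraries and 1.12 ± 0.29 (adjusted p = 0.0214) in replicates B and C. Over the 25 alternatives that adjusted p ranged from 0.0037 to 0.473, and it was 0.0202 without replicate A of 6 h alone. From 18 to 24 h the change was 1.57 ± 0.37 (limma adjusted p = 0.468, DESeq2 adjusted p = 0.00339, range over alternatives 0.00142 to 0.827). The gene occupies bases 23093190 to 23095471 of chromosome 3L, minus strand (BDGP6, dm6), with 5 exons, and overlaps no other annotated gene.

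RpL15 was also highest at 24 h and lower at 18 h than at 12 h in mean log2 value. It encodes a protein of the large subunit, and its gene is known in Drosophila as a gene within heterochromatin. Values were 952, 1300 and 3062 at 6 h, 2235, 3376 and 4927 at 12 h, 2507, 1253 and 1499 at 18 h, and 8308, 3762 and 4191 at 24 h. The libraries of 24 h lay above all of 6 h and 18 h, and 12 h overlapped all 3 other times. Between 6 and 24 h its log2 change was 1.70 ± 0.43 (SE; limma adjusted p = 0.15 in 12 libraries, 0.078 in replicates B and C, and 0.0144 to 0.488 over the alternatives). The middle step, −0.99 in 12 libraries and −1.57 in replicates B and C, was called by DESeq2 and by edgeR in replicates B and C (adjusted p = 0.000857 and 0.026, range over alternatives 0.000857 to 0.981). The gene occupies bases 27267255 to 27268445 of 3L, plus strand, and holds 2 snoRNA genes.

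Both genes departed from the sum of the group in replicates B and C. When each value was set against the summed ribosomal protein value of its library, limma called 0 of the 84 genes over the 4 times in 12 libraries (background 0%), with 4 at an unadjusted p under 0.05 (7.19% of all genes). The 4 were RpL10 (limma adjusted p = 0.357), RpL15 (0.433), RpS3A (0.659) and RpL41 (0.659). In replicates B and C it called RpL15 (adjusted p = 0.0036) and RpL10 (adjusted p = 0.0063), against 6.99% of all genes. Without replicate A of 6 and 12 h it called the same pair (7.35% of all genes). RpL10 took 0.163%, 0.275% and 0.348% of the reads of the group at 6 h and 1.03%, 0.62% and 0.606% at 24 h. RpL15 took 0.078%, 0.21% and 0.345% at 6 h and 0.885%, 0.505% and 0.468% at 24 h.

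**Figure D4:**
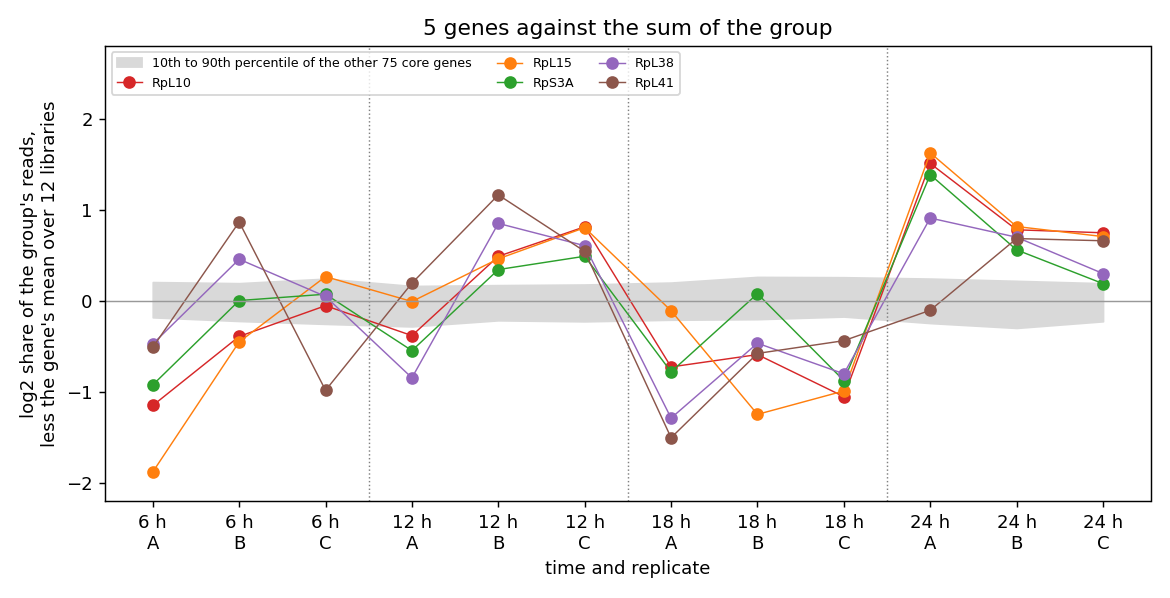
Log2 share of the group's reads, less the gene's own mean over the 12 libraries, for RpL10, RpL15, RpS3A, RpL38 and RpL41, by time and replicate, with the 10th to 90th percentile of 75 other core genes as a grey band (RpL39 is left out). RpL10, RpL15, RpS3A and RpL38 lie above the band in replicates B and C of 12 h and, apart from RpS3A in replicate C, in the libraries of 24 h.

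RpS3A, RpL38 and RpL41, like RpL39 above, also had a correlation with the sum under 0.2. RpS3A, a small subunit protein beside the messenger RNA exit, had 1740, 1679 and 2523 at 6 h, 1449, 2931 and 3735 at 12 h, 1483, 2958 and 1528 at 18 h, and 6629, 2968 and 2760 at 24 h. Replicate A of 24 h was the highest by far, and 24 h overlapped 12 h and 18 h but lay above 6 h. Its 6 to 24 h log2 difference was 0.96 ± 0.40 (SE; limma adjusted p = 0.314, 0.107 to 0.656 over alternatives), and it was not called.

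RpL38, a small protein of the large subunit that is known in mouse for the translation of Hox messenger RNAs, had 168, 163 and 175 at 6 h, 83, 294 and 286 at 12 h, 74, 143 and 114 at 18 h, and 337, 231 and 211 at 24 h. All libraries of 24 h were above all of 18 h, and the log2 difference was 1.25 ± 0.61 (SE; limma adjusted p = 0.722, 0.495 to 0.962 over alternatives). RpL41, the smallest ribosomal protein, had 526, 693 and 275 at 6 h, 550, 1175 and 880 at 12 h, 204, 426 and 470 at 18 h, and 536, 734 and 868 at 24 h. Each library of 18 h was lower than each of 12 h and of 24 h, and the log2 difference between 12 and 18 h was −1.26 ± 0.45 (SE; limma adjusted p = 0.762, 0.247 to 0.981 over alternatives). Neither gene was called in any comparison between times, in the 12 libraries or under the alternatives.

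RpL10, RpL15 and RpS3A resembled each other, and also genes outside these 5, in how their shares varied. By the correlation of their shares of the group, the members most like RpL10 were RpS3A (0.93), RpL15 (0.93) and RpS15Aa (0.86), and those most like RpL15 after RpL10 were RpL5 (0.88) and RpS15Aa (0.82). RpS3A was most like RpL10 and then RpL38 (0.86). RpL41 was less like the others, from 0.38 with RpL15 to 0.72 with RpL38. All shares have the same divisor, and for each pair of these 5 genes the correlation of levels was lower than that of shares. For levels it was 0.91 between RpL10 and RpL15, 0.75 between RpL15 and RpS3A, and 0.25 between RpL15 and RpL41. The genes were picked for low correlation with the sum, and the values are a description over 12 libraries.

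The remaining called genes moved by less and depended on the libraries used. RpS24, a small subunit protein mutated in human Diamond-Blackfan anemia, had 15770, 5657 and 7669 at 6 h and 7876, 10869 and 12245 at 12 h. Replicate A was the highest library of 6 h and the lowest of 12 h, so the log2 change was 0.21 ± 0.31 (SE) in 12 libraries and 0.81 ± 0.19 (limma adjusted p = 0.0214) in replicates B and C. That adjusted p ranged from 0.011 to 1 over the alternatives, and the change was −0.11 without replicate B of 6 h. RpL32, a large subunit gene often used as a reference in quantitative PCR, had 11010, 5623 and 8139 at 6 h and 10522, 10603 and 10085 at 24 h. Its log2 change from 6 to 24 h was 0.39 ± 0.24 (limma adjusted p = 0.519) in 12 libraries and 0.62 (adjusted p = 0.0448) without replicate A of 6 and 12 h, with 0.0448 to 0.902 over the alternatives. Apart from replicate B of 6 h, its 12 libraries lay between 8139 and 12090.

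RpL34b, RpS30 and RpL29 were called for any change in replicates B and C and were highest at 18 h there. RpL34b, of the large subunit, had 2870 and 3475 at 6 h, 4089 and 3530 at 12 h, 6776 and 6430 at 18 h, and 4107 and 4481 at 24 h in replicates B and C (limma adjusted p = 0.0156 for any change). RpS30, whose protein is made as a fusion with a ubiquitin-like domain, had 4202 and 6417, 7489 and 7890, 10869 and 11723, and 7490 and 6831 (adjusted p = 0.0156). RpL29 had 1961 and 2623, 2841 and 2860, 4295 and 4486, and 2686 and 1790 (adjusted p = 0.0498). Both libraries of 18 h lay above those of the other times for each gene, and the DESeq2 call of RpL34b between 12 and 18 h was in the same 8 libraries. With all 12 libraries the adjusted p-values of the same test were 0.607, 0.675 and 0.553, and replicate A of 6 h reached 7262, 13353 and 4415.

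RpL10, RpL15, RpL38 and RpS3A have in common that they lie near a centromere or on chromosome 4, which in Drosophila is small and rich in heterochromatin. RpL10 and RpL15 are on 3L beyond 23 Mb, RpL38 is on 2R from 4515388 to 4516458, and RpS3A is the only tested member on chromosome 4, from 65225 to 67207 (BDGP6, dm6). RpL5 and RpL21, on 2L beyond 22 Mb, are the other members so placed, and RpL41 is not. The windows, which begin at 22 Mb on 2L, 23 Mb on 3L and 22 Mb on X and end at 5 Mb on 2R and 4 Mb on 3R, were chosen after the values of these genes were seen, so nothing here was tested.

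Other genes in these places had medians of the same sign as RpL10, RpL15, RpS3A and RpL38 in each step. From 6 to 24 h the 69 other tested genes of chromosome 4 had a median log2 change of 1.13, with 64 of 69 higher, the 100 other genes near a centromere 0.88, with 83 of 100 higher, and the 6716 genes elsewhere −0.02, with 49% higher. The medians for chromosome 4, near a centromere and elsewhere were 0.70, 0.57 and 0.06 from 6 to 12 h, −0.41, −0.19 and 0.03 from 12 to 18 h, and 0.67, 0.45 and −0.11 from 18 to 24 h. The first 2 steps were 0.83 and −0.89 for RpL10, 1.10 and −0.99 for RpL15, 0.37 and −0.41 for RpS3A, and 0.18 and −0.84 for RpL38. In 12 libraries the second step was smaller in size than the first for both sets and RpL15, and larger for RpL10, RpS3A and RpL38. For RpL10 and RpS3A the 2 steps were close in size, and the order depended on the libraries. In replicates B and C these steps were 1.18 and −1.29 for RpL10, and 1.03 and −1.57 for RpL15. They were 0.68 and −0.64 for RpS3A, and 0.78 and −1.18 for RpL38. For chromosome 4 they were 0.781 and −0.777 there, and near a centromere 0.59 and −0.39. The medians for 6 against 24 h in replicates B and C were 0.81, 0.57 and 0.06. Among protein-coding genes with a mean of at least 200, the comparison of 6 with 24 h gave 0.996 for 55 genes of chromosome 4, 0.88 for 72 near a centromere and −0.03 for 4428 elsewhere.

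The sets and RpL10 also differed by library at 18 h. Against each gene's own mean, the median of the chromosome 4 genes was −0.71, −0.46 and −0.09 at 6 h, −0.24, 0.40 and 0.53 at 12 h, −0.07, −0.47 and 0.00 at 18 h, and 0.76, 0.52 and 0.39 at 24 h. The median near a centromere, where RpL10 lies, was −0.62, −0.24 and −0.13, then −0.11, 0.33 and 0.21, then 0.12, −0.30 and 0.01, and 0.62, 0.21 and 0.38. RpL10 on that scale was −0.71, −0.93 and −0.07, then −0.58, 0.42 and 0.94, then −0.66, −0.38 and −0.85, and 1.57, 0.51 and 0.74. All 3 were negative in replicate A of 12 h and positive in replicates B and C of that time, while at 18 h RpL10 was negative in every library and the sets were near 0 in replicate C. In 12 libraries RpL5 and RpL21 did not show the course of RpL10. The log2 differences of RpL5 were 0.03, 0.01 and 0.17 in the 3 steps and 0.21 between 6 and 24 h, and those of RpL21 were −0.08, 0.31, 0.10 and 0.33. In replicates B and C those of RpL5 were 0.26, −0.15, 0.05 and 0.16, with the signs of RpL10 but smaller. Those of RpL21 were 0.39, 0.24, −0.13 and 0.51 there. Whether place on the chromosome bears on the values of these members was not tested.

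**Figure D5:**
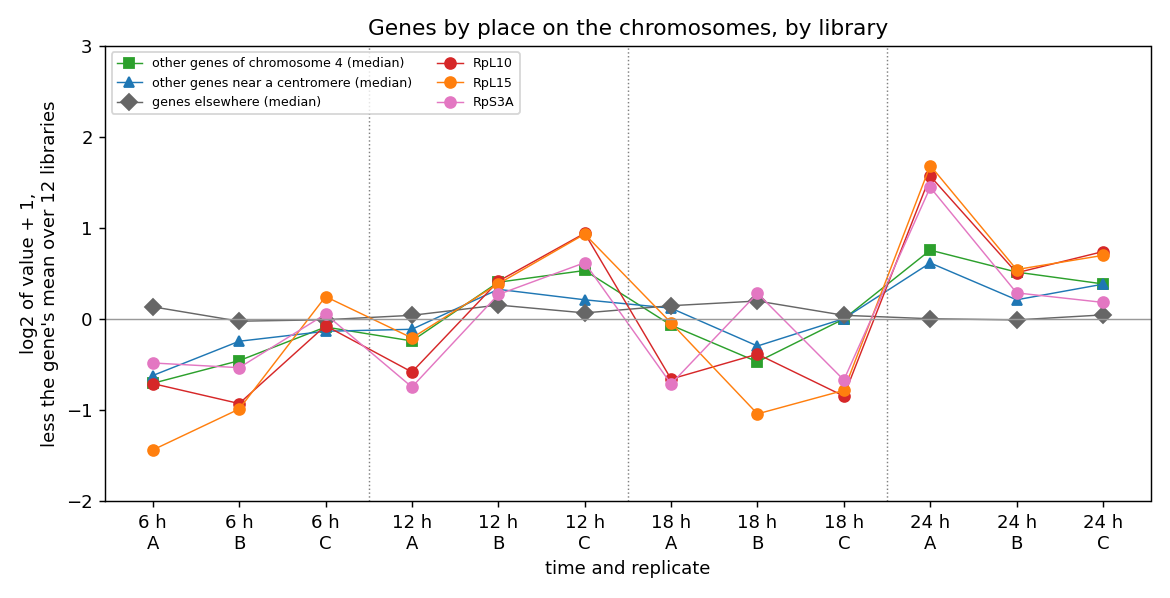
Log2 of value + 1, less each gene's mean over the 12 libraries, by time and replicate, as the median of genes on chromosome 4, near a centromere and elsewhere, and for RpL10, RpL15 and RpS3A. The medians of both sets and RpL10 lie below 0 in the libraries of 6 h and above 0 in those of 24 h, and the median of the genes elsewhere stays within 0.2 of 0.

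Genes that make, regulate or work with the ribosome were compared through 7 lists, and limma called 0 members of each from 6 to 24 h in 12 libraries, at a background of 0%. In replicates B and C, at a background of 10.1%, the elongation and termination list had 1 of 8 higher and 3 of 8 lower. Ef1alpha48D, the main elongation factor that delivers transfer RNA, had 12650 and 14106 at 6 h and 3854 and 3443 at 24 h in replicates B and C. It fell by 1.87 ± 0.23 on the log2 scale (limma adjusted p = 3.56e-05), while replicate A had 4687 and 5695 at those times and the 12-library change was −1.16 (adjusted p = 0.211). Elf, the termination factor eRF3, fell by 1.52 ± 0.35 (limma adjusted p = 0.00996) in replicates B and C. Replicate A went the other way, from 414 at 6 h to 505 at 24 h, and in 12 libraries the change was −0.92 (adjusted p = 0.407). The other calls of this list were eRF1, its partner in termination, which fell by 0.98 ± 0.27 (adjusted p = 0.0285), and Ef1beta, an exchange factor of elongation, which rose by 0.99 ± 0.26 (adjusted p = 0.0225). In 12 libraries their changes were −0.29 (adjusted p = 0.815) and 0.60 (adjusted p = 0.491).

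Among regulators of growth 1 of 16 was higher and 1 lower in the same fit. Myc, a transcription factor known to drive ribosome production, was at 2654 and 2198 at 6 h and 6946 and 6206 at 24 h in replicates B and C, and rose by 1.44 ± 0.21 (limma adjusted p = 0.000187). Replicate A had 5143 and 6879, and in 12 libraries the change was 1.10 ± 0.33 (adjusted p = 0.197). The list of assembly factors had 1 of 36 called, kra, which is known as a translation regulator and rose by 1.08 ± 0.25 (adjusted p = 0.0117; 1.15 and 0.136 in 12 libraries). The growth regulator that was lower was S6k, the kinase of RpS6, which fell by 1.11 ± 0.24 (adjusted p = 0.00606), with a 12-library change of −0.58 (adjusted p = 0.526). The initiation list had 1 of 28 higher, eIF3-S8, a subunit of initiation factor 3 (0.90 ± 0.27, adjusted p = 0.0442), and the nascent chain list had bic, the β subunit of the nascent polypeptide complex, as 1 of 15 higher (0.68 ± 0.18, adjusted p = 0.0259). In 12 libraries their changes were 0.55 (adjusted p = 0.399) and 0.36 (adjusted p = 0.548), and replicate A of bic had 16700 at 6 h and 13666 at 24 h. RNA polymerase I had 0 of 7 called.

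The mitochondrial ribosome, built from a separate set of genes, was much less abundant. Its 73 genes summed to 0.148% to 0.239% of reads, and 0 of 70 tested were called by limma between 6 and 24 h, whether in 12 libraries or in replicates B and C. Their median log2 change was 0.19 from 12 to 18 h and −0.44 from 18 to 24 h, beside 0.22 and −0.27 for the cytosolic core genes.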

How the data were processed

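RNA of 12 pools of sorted neurons was read with MARS-seq, a 3′ method with amplification by in vitro transcription, per the labels' protocols. Tools named in the submitters' processing notes are HISAT 0.1.5, HOMER and bcl2fastq. The treatment of multiply mapped reads, strand and molecular identifiers is not given in the sources used. Per the file headers, the deposited values are a signal, normalised by the authors to a depth of 10000000 mapped reads. In each library 100% of the nonzero values came out as whole reads (tolerance 0.02 reads), which gave depth and reads for the count tests. Coordinates are those of the table, counted from 1, in BDGP6 (dm6), and all 92 members matched that annotation, 87 with identical ends.

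The 6969 genes that reached 50 in 3 or more libraries were tested on log2(value + 1) with limma 3.58.1 (R 4.3.3, intensity trend), with 1 mean per time over all 12 libraries. P-values were adjusted by Benjamini-Hochberg over all genes tested and called under 0.05. On this scale the change of low genes is understated. Alternatives were a pseudocount of 10, no filter and a filter at 200, 3 scalings, edgeR 4.0.16 and DESeq2 1.42.0 on the recovered reads, a block for the replicate letter, replicates B and C alone, each library left out in turn, and, added after the data were seen, 10 libraries without replicate A of 6 and 12 h and the count tests in replicates B and C. The limma step was tested on simulated data. Tables and plots used Python 3.11.15, pandas 2.3.3, NumPy 2.4.6 and Matplotlib 3.10.9.

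Members, lists and tests were chosen with earlier results of these data known. Genes were named by rule: sta and sop, called members, the 5 highest and 5 lowest, the 4 farthest from the members' median in each comparison, the 6 with the smallest p against the sum, and paralogs. RpL5, RpL21 and the position windows were chosen after their values were seen. A gene that this rule names is not reported here. No test was made over the members together, and no sequences are printed.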

Additional observations from a re-analysis of the deposited data

How the results depend on the processing

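For most of these genes the counting error, with each read taken as independent, was far below the spread between libraries. The treatment of molecular identifiers is not given, so counting error may be understated. The counts changed with the libraries used. In 12 libraries limma called 0 members in every comparison, also with the other pseudocount, filters and scalings and with edgeR. DESeq2 called 2 members in the step to 24 h, 2 between 6 and 24 h and 2 for any change. From 6 to 12 h, replicates B and C gave 2 members with limma, 2 with DESeq2 and 1 with edgeR, and the 10 libraries gave 2. From 12 to 18 h, DESeq2 gave 3 and edgeR 2 in replicates B and C. From 18 to 24 h, DESeq2 gave 2 and edgeR 1 there, and the 10 libraries 1 with limma. From 6 to 24 h the counts were 1, 2 and 1 in replicates B and C and 4 in the 10 libraries. For any change they were 6, 6 and 5, and 5. Against the sum of the group, replicates B and C and the 10 libraries gave 2 each.

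Leaving out each library in turn gave 0 to 2 members between 6 and 24 h, 0 to 3 for any change, 0 to 2 against the sum and 0 in the other comparisons. All counts above 0 came without replicate A of 6 h. In that run the background was 9.7% of all genes between 6 and 24 h, 7.26% for any change and 6.4% against the sum. The log2 ratio of the summed share from 6 to 12 h was −0.06 in 12 libraries and 0.29 in replicates B and C and in the 10 libraries, and −0.27 to 0.21 with one library left out. The other steps of the sum moved by less than the pooled SD within a time. Over the same runs the log2 change of RpS24 between 6 and 12 h ran from −0.11 to 0.62, and that between 6 and 24 h from −0.021 to 0.719. Both were below 0 without replicate B of 6 h. The cause was not tested.

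The replicate letters did not pair the libraries: the 18 correlations between same-lettered libraries ran from −0.34 to 0.07, none above 0.1. With the replicate block 0 members were called in each comparison and 0 against the sum.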
